A study of Mus musculus with 65 samples.

Results

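The cells described here are 44 of 65 single HSD2 neurons, sorted by how much Fos mRNA each one held. A cell was called Fos-high when its Fos value was at least 8 and Fos-low when it was at most 4, on the deposited log2(CPM + 1) scale, where CPM is the number of reads of a gene scaled to a common library total. That gave 29 Fos-high cells and 15 Fos-low cells, and the 21 cells between the limits were left out of the comparison. HSD2 neurons are cells of the nucleus of the solitary tract, a brainstem nucleus that receives visceral and taste signals. They make 11-beta-hydroxysteroid dehydrogenase type 2, which removes glucocorticoids and so lets the mineralocorticoid receptor respond to aldosterone, and they are known for their part in sodium appetite. All 65 cells came from male mice of mixed strain that carried Hsd11b2-Cre and the Ai9 (lox) tdTomato reporter, so a cell is red where Cre was active at any time in its history. The mice ate standard chow (33 cells) or a low-sodium diet (32 cells). Tissue was digested with papain, red cells were picked by hand and frozen, and each cell became 1 polyA library by Smart-Seq2 and Nextera XT. The tissue label of every cell is the nucleus of the solitary tract, whereas the extraction protocol names Arc-ME as the digested tissue. Neither the animal nor its age is named in the labels. Cells are therefore not replicates of a diet, no test was run, and every SD is a spread over cells.

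Fos belongs to the immediate early genes, which are switched on within minutes of a stimulus without new protein synthesis. Calcium entry, cyclic AMP and growth factor signals reach their promoters through kinases that act on CREB and on serum response factor. Fos protein pairs with a Jun protein to form AP-1, a transcription factor that acts on later genes, while phosphatases, kinases and RNA-binding proteins induced with it shut the response down. In neurons Fos is widely used as a sign of recent activity. Enzymatic dissociation is also known to induce the same genes, so induction in the animal and induction during digestion and picking cannot be told apart in these cells.

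Fos itself chose the cells, so its values are a description. In Fos-high cells Fos ran from 8.09 to 11.51 with a median of 9.33. In Fos-low cells it ran from 0 to 3.25, and 12 of the 15 cells were listed at 0. Nearest to the limits, the highest Fos-low cell had 3.25 and the lowest cell left out had 4.06, while the highest cell left out had 7.97 and the lowest Fos-high cell had 8.09. A value of 0 does not carry the same weight in each cell: 3 reads, the most that a count of 0 allows, were worth 0.79 to 5.52 on the log2(CPM + 1) scale in the Fos-low cells, and in 12 of the 15 this was at or below the limit of 4. Intervals and floors cover counting error only.

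Both diets supplied cells to both groups. Of the 33 chow cells, 16 were Fos-high (48.5%, exact Clopper-Pearson 95% interval 30.8% to 66.5%) and 9 were Fos-low (27.3%, interval 13.3% to 45.5%). Of the 32 low-sodium cells, 13 were Fos-high (40.6%, interval 23.7% to 59.4%) and 6 were Fos-low (18.8%, interval 7.21% to 36.4%). These intervals overlap between the diets for each group. Every one of the 65 cells had at least 10 of 12 measured pan-neuronal markers above 10 CPM. Hsd11b2, the gene that drives the Cre, was above 0 in all 44 cells, with 6.45 to 10.68 (median 8.59) in Fos-high cells and 6.42 to 10.64 (median 8.89) in Fos-low cells. Fos-high libraries were somewhat deeper, with a median of 872311 reads in listed genes (98402 to 5319278) against 645967 (50566 to 3651243). They also had more detected genes, with a median of 8374 (6048 to 11467) against 7311 (4700 to 9273), and 6731 against 5950 after each cell was thinned to 50000 reads. In 3 Fos-high cells and 1 Fos-low cell, all from the low-sodium diet, the CPM summed to more than 1200000, so their scale is uncertain.

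**Figure D1:**
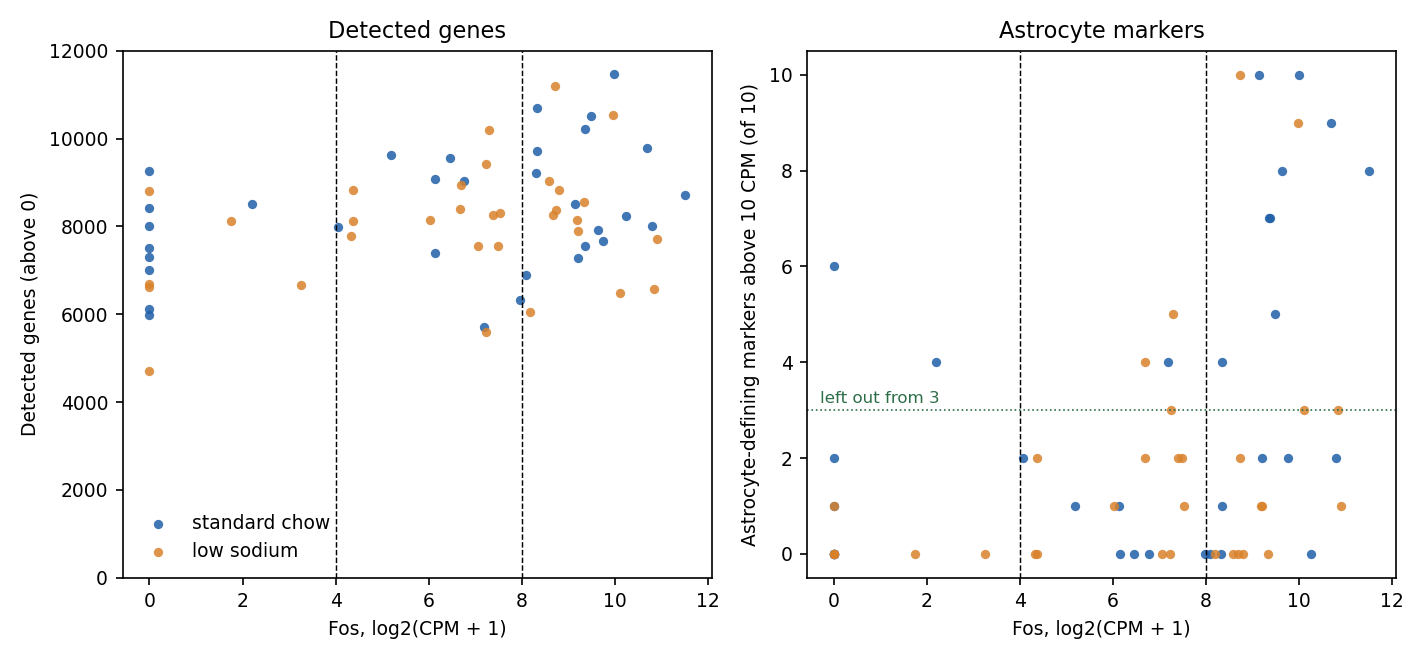
Fos on the log2(CPM + 1) scale (x axes) against the number of detected genes (left) and the number of 10 astrocyte-defining markers above 10 CPM (right), 1 point per cell, coloured by diet. Dashed lines mark the limits of 4 and 8, and the dotted line marks 3 markers: Fos-high cells reach further up in both measures, with 13 of 29 at 3 markers or more against 2 of 15 Fos-low cells.

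The promoters of Fos, Btg2 and Dusp1 are shown because they hold a cyclic AMP response motif, beside that of Junb, an early gene whose level did not separate the groups. Other early genes that differed as much, among them Fosb, Jun and Gadd45g, do not hold the motif in this window. The capitals mark TGACGT on either strand, the core of the cyclic AMP response element to which CREB binds. In Btg2 and Dusp1 the letters TGACGTCA hold 2 overlapping matches, 1 on each strand. Sequences are the bases before the RefSeq transcription start on GRCm38.p6, read along the strand of the gene. The intervals are chr12:85473640-85473889 (plus strand) for Fos, chr1:134079156-134079405 (minus) for Btg2, chr17:26508520-26508722 (minus) for Dusp1, with the bases next to the start left out because an annotated exon covers them, and chr8:84978749-84978998 (minus) for Junb.
Fos: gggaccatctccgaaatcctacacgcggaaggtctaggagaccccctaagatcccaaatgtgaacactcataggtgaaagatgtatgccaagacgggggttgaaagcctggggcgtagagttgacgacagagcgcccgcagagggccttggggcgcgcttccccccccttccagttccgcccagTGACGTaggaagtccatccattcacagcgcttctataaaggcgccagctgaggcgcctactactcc
Btg2: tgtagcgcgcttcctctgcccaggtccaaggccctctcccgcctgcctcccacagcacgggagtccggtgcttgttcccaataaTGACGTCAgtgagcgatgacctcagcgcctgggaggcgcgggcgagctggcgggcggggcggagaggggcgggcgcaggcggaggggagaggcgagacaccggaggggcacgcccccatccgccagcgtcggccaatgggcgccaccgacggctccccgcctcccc
Dusp1: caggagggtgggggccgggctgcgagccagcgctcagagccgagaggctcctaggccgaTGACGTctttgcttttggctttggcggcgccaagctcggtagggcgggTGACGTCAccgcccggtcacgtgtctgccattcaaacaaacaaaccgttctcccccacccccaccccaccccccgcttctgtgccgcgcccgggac
Junb: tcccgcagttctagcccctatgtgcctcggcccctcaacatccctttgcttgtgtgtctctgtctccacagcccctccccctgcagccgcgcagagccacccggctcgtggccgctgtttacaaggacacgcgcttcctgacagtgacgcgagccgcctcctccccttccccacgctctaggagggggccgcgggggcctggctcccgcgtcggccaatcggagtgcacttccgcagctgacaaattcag

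The match in Fos began 66 bases before the start, and those in Dusp1 began 191, 143 and 141 bases before it. Over the whole 250 bases before each start, exon bases included and any promoter of a gene counted, TGACGT was found for 7 of 16 early genes with a promoter in the RefSeq table whose level was higher by at least 2 in Fos-high cells, Fos included (43.8%). It was also found for 12 of 29 other early genes (41.4%), for 12.6% of all 8107 genes compared that have a promoter there, and in 6.47% of all 32851 promoters. The motif was thus about as frequent among early genes that separated the groups as among those that did not. The CArG box, bound by serum response factor, was found for 1 of 16 and 1 of 29 of these genes and in 1.47% of all promoters. The AP-1 motif TGANTCA was found for 2 of 16 and 1 of 29 and in 6.75% of all promoters. Both read the same on either strand. No match says only that these letters are not in this window.

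Across the table, Fos-high cells had the higher mean for most genes. The comparison took the 10725 genes whose mean level over the 65 cells reached 1, and 7921 of them were higher in Fos-high cells (73.9%), and the median difference was 0.45 on the log2(CPM + 1) scale. This shift was larger in genes of low level: the median difference was 0.67 for genes with a mean of 1 to 3 and 0.01 for the 1174 genes with a mean of at least 7. The median of all genes was 0.30 after thinning to 50000 reads and 0.18 among the 24 Fos-high and 7 Fos-low cells with at least 7500 detected genes, a limit set after the values were seen. A difference of at least 2 in mean log2(CPM + 1) was used as the limit for a marked difference. By that limit 463 genes (4.32%) were higher in Fos-high cells and 3 genes (0.028%) were lower. The share of higher among them was 99.4%, and it was 79.6% in cells with at least 7500 genes (566 higher, 145 lower) and 86.9% after the median of all genes was subtracted (146 higher, 22 lower). A difference of at least 1 in the same direction in each diet was found for 1351 genes upward (12.6%) and 48 genes downward (0.448%).

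Of 93 genes on 4 lists of early genes, 71 were measured, and 60 of the 70 without Fos had a mean of at least 1 and were compared. Of these 60, 20 were higher by at least 2 in Fos-high cells, which is 33.3% against 4.32% of all genes, and none was lower by 2. Their median difference was 1.48, against 0.45 for all genes. At 50000 reads per cell 18 of the 20 still differed by at least 2, and Klf10 (1.64) and Zfp36 (1.78) did not. In each diet 26 of the 60 were higher by at least 1, against 12.6% of all genes. The lists were chosen because such genes accompany Fos, and the 10 early genes under the limit on the mean had differences of 0.79 to 2.01.

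**Figure D2:**
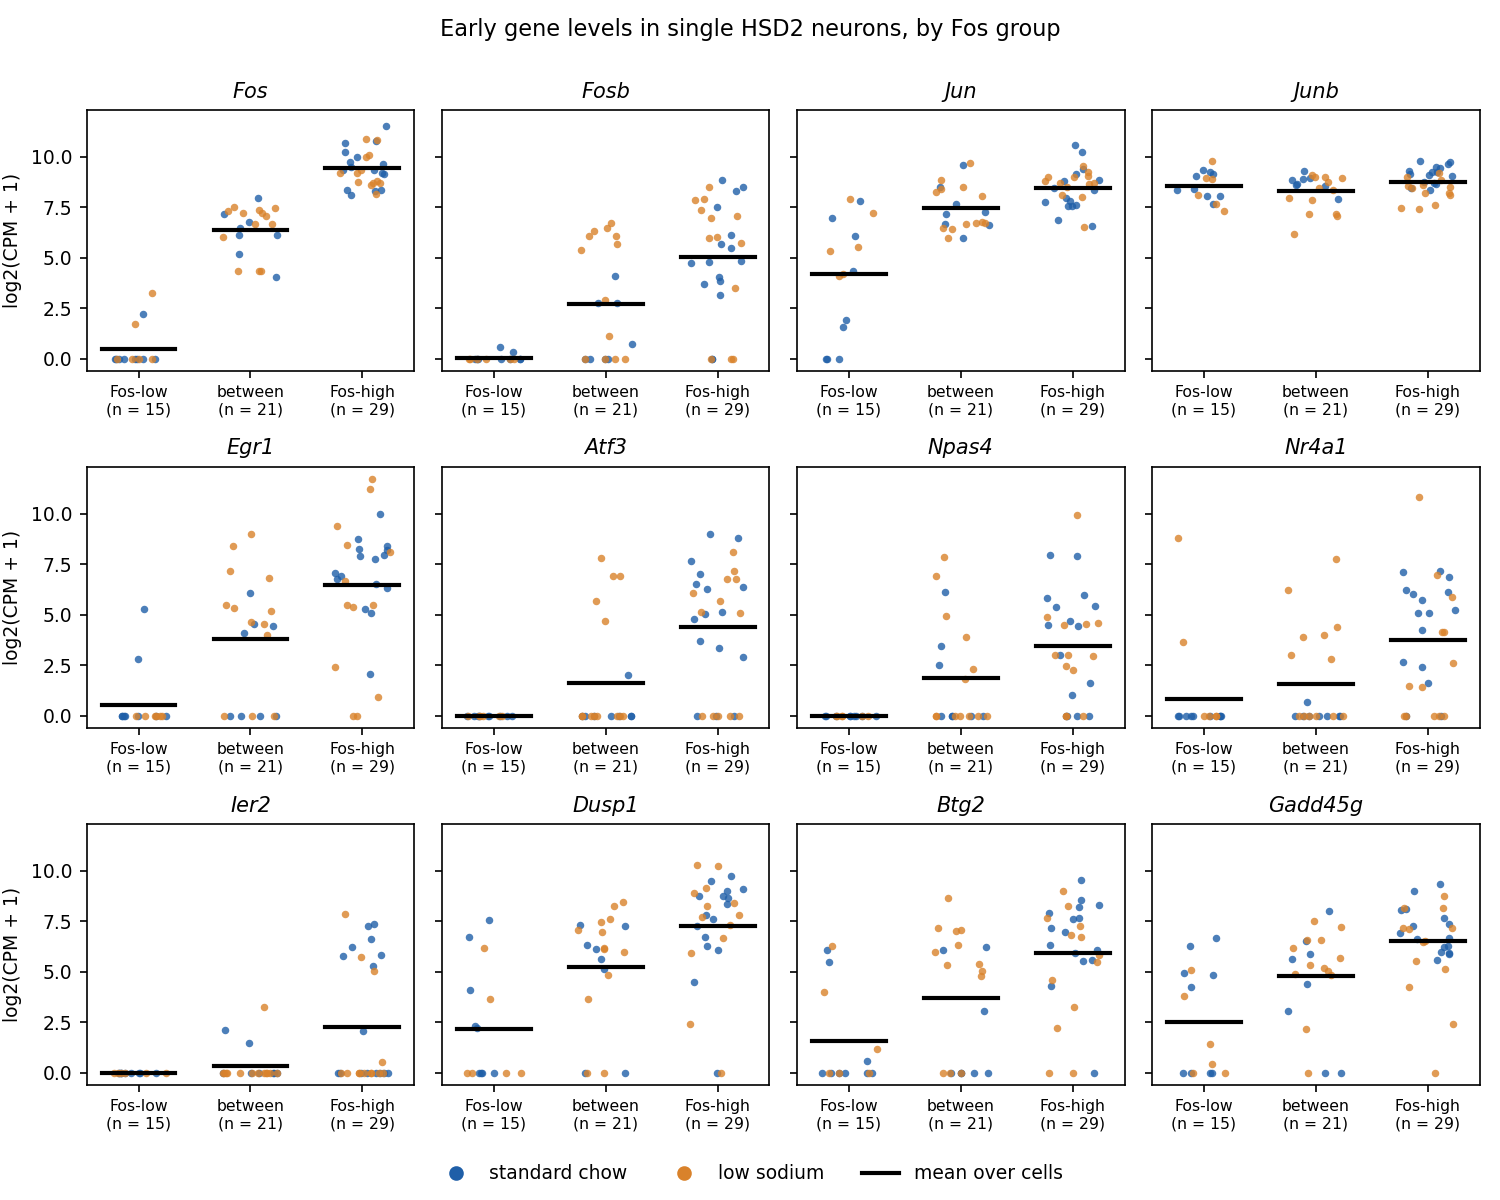
Level of Fos and 11 early genes (log2(CPM + 1), y axis) in each of the 65 cells, grouped by Fos (x axis) and coloured by diet, with a line at the mean over cells. Atf3, Npas4 and Ier2 lie at 0 in all 15 Fos-low cells, Egr1, Fosb, Jun, Dusp1, Btg2 and Gadd45g have intermediate means in the 21 cells between the limits, and Junb lies near the same level in the 3 groups.

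Among the subunits of AP-1, Fosb, Jun and Atf3 were higher in Fos-high cells, and Junb, Jund and Fosl1 were within 1 log2 unit. Fosb, the closest relative of Fos, ran from 0 to 8.83 (median 5.69) in Fos-high cells and from 0 to 0.59 (median 0) in Fos-low cells. It was above 0 in 24 of 29 Fos-high cells and in 2 of 15 Fos-low cells, and those 24 cells all lay above every Fos-low cell. The means were 5.06 ± 2.84 (SD, n = 29) and 0.06 ± 0.17 (SD, n = 15), a difference of 4.99. Jun, the main partner of Fos, was detected in every Fos-high cell, from 6.50 to 10.60 with a median of 8.66. In Fos-low cells it ran from 0 to 7.89 with a median of 4.37, so the groups overlapped, but 21 of 29 Fos-high cells exceeded every Fos-low cell. Jun lies on chromosome 4 (95049034 to 95052222, minus strand, GRCm38) and Fosb on chromosome 7 (19302696 to 19310051, minus). The difference in the mean of Jun was 4.26, with 8.46 ± 0.96 (SD, n = 29) against 4.20 ± 2.87 (SD, n = 15). Atf3, a stress-induced factor of the ATF family that can pair with Jun, was listed at 0 in all 15 Fos-low cells, which allows a share of up to 20% of cells. It was above 0 in 21 of 29 Fos-high cells (72.4%), up to 9.00, and its difference of 4.39 depends on the pseudocount of 1 CPM because 1 group is at 0.

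Junb behaved differently from Jun although both are early genes. It was detected in all 44 cells, from 7.43 to 9.78 (median 8.76) in Fos-high cells and from 7.34 to 9.78 (median 8.41) in Fos-low cells. The ranges coincide almost fully, and the means of 8.77 ± 0.64 and 8.54 ± 0.72 (SD, n = 29 and 15) differed by 0.23, less than either SD. Jund, a subunit that most cells make without stimulation, differed by 0.95 (5.90 against 4.95), and Fosl1 by 0.59 (6.94 against 6.34). Exons of Fosl1 overlap those of Ccdc85b on the opposite strand, and whether the counting used strand is not given in the sources used here, so its level is uncertain. The same holds in smaller measure for Junb, which shares 173 bases of exon with Prdx2, and for Jun, which shares 232 with the antisense transcript Junos.

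All 13 other early transcription factors compared had a higher mean in Fos-high cells (all genes 73.9%), though Klf9 by only 0.004. Of the 13, 5 were higher by at least 2 (all genes 4.32%). Klf10 and Ier2, 2 of these 5, met the limit on the mean through the Fos-high cells. With no limit on the mean, 5 of the 19 measured were higher by at least 2. Egr1, a zinc finger factor that answers to the same kinases as Fos, showed the largest difference of any gene compared other than Fos. Egr1 ran from 0 to 11.73 (median 6.90) in Fos-high cells and from 0 to 5.31 (median 0) in Fos-low cells, and was above 0 in 27 of 29 and 2 of 15 cells. The difference was 5.96, with means of 6.50 ± 3.03 and 0.54 ± 1.51 (SD, n = 29 and 15). Npas4, a neuronal factor that answers to calcium entry, was at 0 in all 15 Fos-low cells and above 0 in 22 of 29 Fos-high cells (75.9%), with a maximum of 9.94 and a median of 3.04. Its difference was 3.45, and at 50000 reads per cell it was found in 51.7% of Fos-high cells.

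Nr4a1, an orphan nuclear receptor, differed by 2.93 (3.76 against 0.83) and was above 0 in 22 of 29 and 2 of 15 cells. The 2 Fos-low cells with Nr4a1 were both low-sodium cells, and 1 of them reached 8.81, and the difference was 4.47 among chow cells and 0.80 among low-sodium cells. The cell at 8.81 is neuron 47, one of those with a CPM sum above 1200000, and without it the low-sodium difference was 2.15. Without every low-sodium cell past that sum, Fos-high cells included, it was 1.10 (10 Fos-high and 5 Fos-low cells). Klf10, a zinc finger factor induced by TGF-beta, was at 0 in all Fos-low cells and above 0 in 17 of 29 Fos-high cells, a difference of 2.07. Ier2, a nuclear protein of the early response, was also at 0 in all Fos-low cells but above 0 in only 12 of 29 Fos-high cells, with a difference of 2.26. Per1, a clock gene that also answers to CREB, differed by 1.98 and had its highest mean in the cells between the limits (6.40, against 5.55 and 3.57). Klf9, a target of corticosteroid receptors, had the same mean of 5.93 in both groups.

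Early genes that act outside the nucleus or on the cell cycle formed a mixed list. Of 22 compared, 5 were higher by at least 2, 16 were higher at all and 6 were lower, with a median of 0.68. Past 2 that is above the 4.32% of all genes, but the number higher at all is near the 73.9% of all genes. Btg2, an antiproliferative protein that promotes mRNA deadenylation, ran from 0 to 9.56 (median 6.73) in Fos-high cells and from 0 to 6.28 (median 0) in Fos-low cells. It was above 0 in 26 of 29 against 6 of 15 cells, and the difference was 4.38. Gadd45g, a stress sensor that binds MAP kinase kinases, ran from 0 to 9.35 (median 6.65) and from 0 to 6.69 (median 1.44), a difference of 4.03. Both genes overlapped between the groups, with 16 and 14 of the 29 Fos-high cells above every Fos-low cell.

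Bdnf, a neurotrophin released by active neurons, differed by 2.67 (5.20 against 2.53). Its mean of 5.23 in the cells between the limits was as high as in Fos-high cells, and it was the exception among the 20 genes: the other 19 had an intermediate mean there. Vgf, the precursor of secreted peptides, differed by 2.25, and Tiparp, a mono-ADP-ribosyltransferase, by 2.72. Arc, a synaptic protein that is a classical activity marker, differed by 1.90 and was above 0 in 16 of 29 against 2 of 15 cells. Homer1, a postsynaptic scaffold (0.21), Scg2, a granin (0.32), Nrn1, a small surface protein of neurites (-0.44), Rgs2, a regulator of G protein signalling (-0.62), and Nptx1, a synaptic pentraxin (-0.81), are also counted among activity genes and did not reach a difference of 1 in either direction. Homer1, Scg2 and Nptx1 had their highest mean in the cells between the limits, with 8.85 for Nptx1 against 6.88 in Fos-high and 7.69 in Fos-low cells.

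Among 19 genes compared that restrain the response, 7 were higher by at least 2 (all genes 4.32%), 18 were higher at all (all genes 73.9%), and the median difference was 1.60. With no limit on the mean, 7 of 21 were higher by at least 2. Dusp1, a nuclear phosphatase that switches off MAP kinases, ran from 0 to 10.27 (median 7.83) in Fos-high cells and from 0 to 7.59 (median 0) in Fos-low cells. It was above 0 in 27 of 29 against 7 of 15 cells and differed by 5.09 (7.28 ± 2.63 against 2.19 ± 2.80, SD, n = 29 and 15). Ppp1r15a, which directs a phosphatase to the translation factor eIF2-alpha, differed by 2.95. Sik1, a salt-inducible kinase that holds back the coactivators of CREB, differed by 2.39 and was above 0 in 27 of 29 against 7 of 15 cells. The ERK phosphatase Dusp6 differed by 2.20 and Dusp14 by 2.28, the latter by 3.64 among chow and 0.64 among low-sodium cells. The mRNA decay factor Zfp36l1 differed by 2.54, and its relative Zfp36 only just passed 2. Errfi1, an inhibitor of the EGF receptor, was the one member of the list with a lower mean in Fos-high cells (-0.66).

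**Figure D3:**
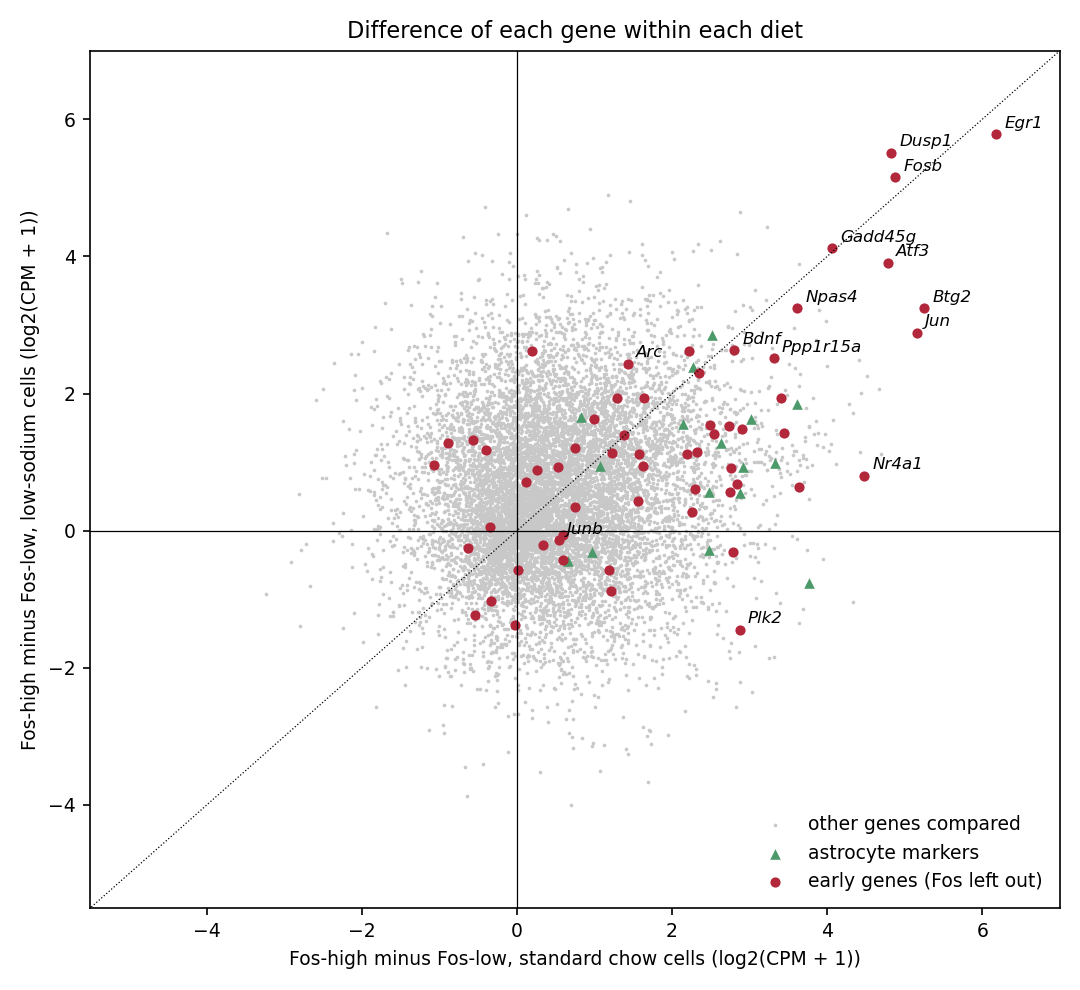
Fos-high minus Fos-low difference in mean log2(CPM + 1) among chow cells (x axis, 16 and 9 cells) and low-sodium cells (y axis, 13 and 6 cells), 1 point per gene compared, with early genes in red and astrocyte markers as green triangles. The dotted line marks equal differences: Egr1, Dusp1, Fosb, Atf3, Gadd45g and Npas4 lie near it. Gem (3.64 and 3.89) and Tmed5 (3.89 and 3.21), which are not on the early lists, lie close to Gadd45g (4.06 and 4.12) and Npas4 (3.61 and 3.25). Nr4a1 lies at 4.47 and 0.80 (2.15 without low-sodium neuron 47, and 1.10 without every low-sodium cell with a CPM sum above 1200000).

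Of the 20 early genes higher by at least 2, 18 were higher by at least 1 in each diet (90%), which is near the 89.4% of all 463 genes past 2 (414 genes). By at least 2 in each diet it was 12 of the 20 (60%), against 151 of the 463 (32.6%). Chow and low-sodium cells gave 6.18 and 5.79 for Egr1, 4.87 and 5.15 for Fosb, and 4.83 and 5.51 for Dusp1. For Jun the differences were 5.16 and 2.89, and Jun in Fos-low cells had a mean of 3.19 in chow cells (6 of 9 above 0) and 5.71 in low-sodium cells (6 of 6). Within the Fos-high cells, Egr1 had a mean of 7.08 in 16 chow cells and 5.79 in 13 low-sodium cells, and Fosb had 4.98 and 5.15. Both gaps are smaller than the SD of the gene over Fos-high cells. For Junb the means were 9.13 and 8.33, a gap larger than its SD of 0.64. Animals are not named, so a difference between the diets was not tested.

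Early genes were also counted cell by cell. Of the 4 genes Fosb, Egr1, Npas4 and Atf3, all 4 were above 0 in 13 of 29 Fos-high cells, 3 in 12 cells, 2 in 2 cells and 1 in 2 cells. None of the 4 was above 0 in 12 of 15 Fos-low cells. The 3 exceptions were chow cells listed at 0 for Fos: neuron 12 had Fosb, neuron 32 had Egr1 and neuron 59 had both. In the 21 cells between the limits 2 of the 4 was the commonest number (9 cells). These 4 genes were chosen after their values were seen. Singly, Fosb was above 0 in 24, Egr1 in 27, Npas4 in 22 and Atf3 in 21 of the 29 Fos-high cells. Whether they were found together more often than these counts alone would give was not tested. Counting all 60 early genes compared, a Fos-high cell had 24 to 56 above 10 CPM (median 39), a cell between the limits 23 to 46 (median 35) and a Fos-low cell 18 to 31 (median 26). At 50000 reads per cell the medians of early genes with a read were 37, 32 and 25.

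Fos-high cells also varied among themselves. Within these 29 cells the Spearman rho with Fos was 0.66 for Jun, 0.63 for Egr1, 0.60 for Fosb and 0.44 for Dusp1, and it was 0.12 for Junb and -0.27 for Bdnf. Over all 65 cells, 44 of which are the cells compared, the 10 genes with the highest rho were Egr1 (0.73), Jun (0.71), Fosb (0.68), Atf3 (0.64), Dusp1 (0.62), Gadd45g (0.61), Tmed5 (0.57), Npas4 (0.55), Zdhhc9 (0.55) and Cotl1 (0.54). The ranking used every named gene above 0 in at least 16 cells, and 7 of the 10 are early genes. It rests on the Fos values that also chose the groups, so it is not separate support for the differences. The values of a cell share its library and its scale, and in Fos-high cells Fos itself had a rho of -0.49 with the number of reads, so these are descriptions.

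Astrocyte transcripts moved with Fos. All 16 astrocyte markers measured had a higher mean in Fos-high cells (all genes 73.9%), 7 of them by at least 2 (all genes 4.32%). Their median difference was 1.84, against 0.45 for all genes. A stricter set of 10 defining markers (Slc1a3, Slc1a2, Aqp4, Gja1, Gfap, Aldh1l1, Sox9, Fgfr3, Mlc1 and S100b) was put together after the values were seen. At least 3 of the 10 exceeded 10 CPM in 13 of 29 Fos-high cells (44.8%, exact interval 26.4% to 64.3%), in 2 of 15 Fos-low cells (13.3%, 1.66% to 40.5%) and in 4 of the 21 cells between the limits. The summed CPM of the 10 markers ran from 0 to 5730 (median 107) in Fos-high cells and from 0 to 455 (median 4.9) in Fos-low cells, and Sox9 was at 0 in all Fos-low cells. In Fos-high cells the mean of these markers had a rho of 0.61 with Egr1, 0.72 with Ier2 and 0.55 with Fos. With other early genes it was lower: 0.17 with Fosb, 0.16 with Jun and Npas4, 0.13 with Btg2, 0.07 with Gadd45g and -0.13 with Bdnf.

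With these 15 cells left out, 16 Fos-high and 13 Fos-low cells remained. Of the 20 early genes past 2, 12 stayed past it, against 211 of all 463 genes past 2. The limit of 2 alone parts the early genes named next. Egr1 (5.14), Fosb (4.89), Btg2 (4.36), Dusp1 (4.31), Jun (4.22), Gadd45g (3.80), Atf3 (3.61), Npas4 (3.55), Bdnf (2.98), Vgf (2.49), Ppp1r15a (2.20) and Sik1 (2.17) still differed by at least 2. The other 8 of the 20 did not: Dusp6 was at 1.67, Tiparp at 1.57, Nr4a1 at 1.40, Dusp14 at 1.37, Klf10 at 0.95, Zfp36 at 0.47, Ier2 at 0.03 and Zfp36l1 at 0.02. Of the 12 Fos-high cells with Ier2, 11 were among the 13 with astrocyte markers. The same held for all 11 Fos-high cells with Cyr61, an early gene for a matrix protein under the limit on the mean. Per1 (2.74) and Arc (2.19), under 2 over all cells, were above it without these cells. The median of the 60 early genes was 1.07 and that of all genes 0.35 without these cells. The part of astrocyte RNA in the differences over all cells was not tested.

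**Figure D4:**
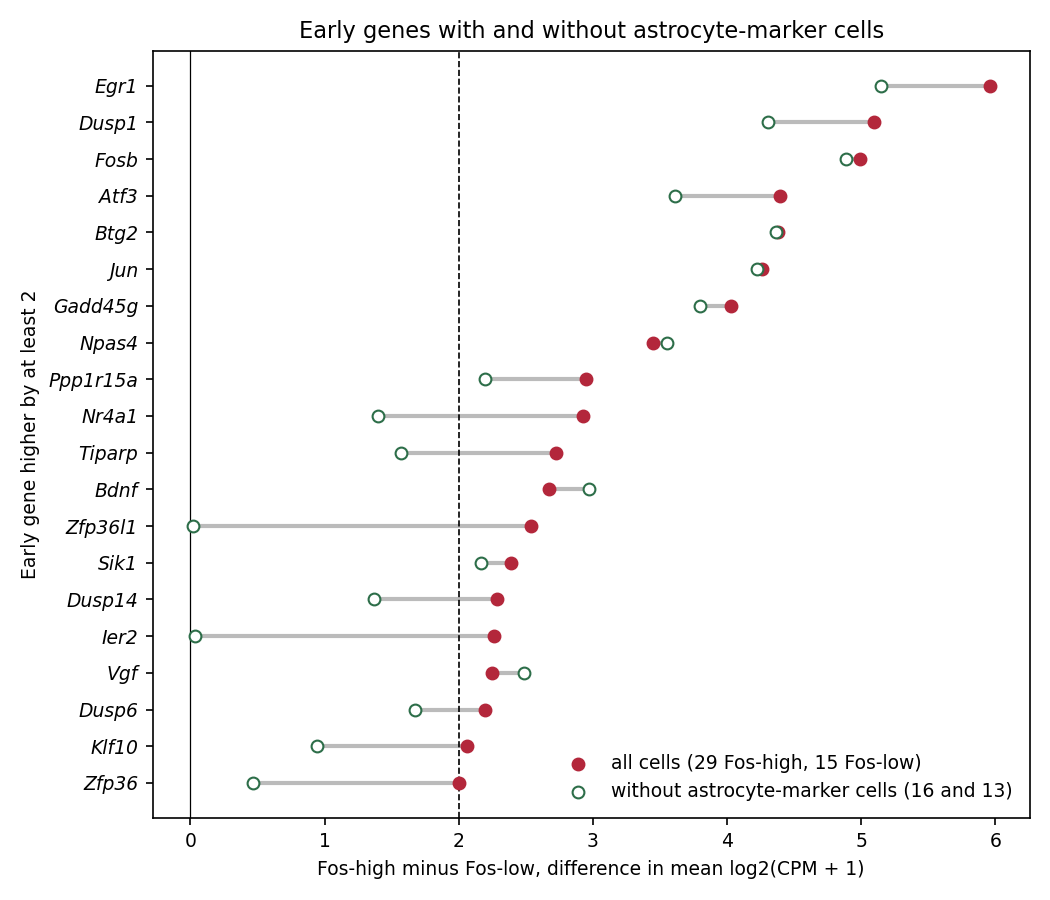
Fos-high minus Fos-low difference in mean log2(CPM + 1) (x axis) of the 20 early genes past 2 (y axis), over all cells (filled) and without cells that hold at least 3 of 10 astrocyte-defining markers (open). The dashed line marks 2: the open points of Ier2 (0.03) and Zfp36l1 (0.02) lie at 0, while Fosb, Btg2, Jun, Gadd45g and Npas4 keep nearly the same place.

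Markers of other cell types were also found. The summed CPM of the 8 oligodendrocyte markers measured ran from 17.1 to 15697 (median 246) in Fos-high cells. In Fos-low cells it ran from 0 to 768 (median 351). At least 3 endothelial markers were above 10 CPM in 4 Fos-high and 2 Fos-low cells. Mbp, a myelin gene, differed by 0.62 and was above 0 in 24 of 29 and 12 of 15 cells. Markers of ependymal cells, fibroblasts and blood, a list that holds Foxj1 and the haemoglobin gene Hbb-bs, reached 3 in 9 Fos-high cells and no Fos-low cell. Markers of microglia are not among the genes measured here.

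The kinases, receptors and coactivators that carry signals to the Fos promoter did not stand apart. None of the 58 compared differed by 2, and their median of 0.44 was that of all genes (0.45). The largest differences were 1.73 for Mapk14, the stress kinase p38-alpha, 1.60 for Adcy3, an adenylyl cyclase, 1.58 for Crebbp, the CREB-binding acetyltransferase, and 1.50 for Mkl2, a coactivator of serum response factor. Exons of Adcy3 overlap those of Cenpo on the opposite strand.

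Stress genes other than the early genes were read because digestion can also induce them. The median of 22 heat shock genes was 0.20 (-0.11 from ratios of mean CPM), below that of all genes, and 1 of them differed by at least 2, a share near the 4.32% of all genes. This was Hspa1a, the inducible HSP70, at 2.64 (4.73 against 2.09, above 0 in 22 of 29 and 6 of 15 cells), and at 1.66 without the cells with astrocyte markers. The mean of Hspa1a was highest in the cells between the limits (5.59). Hspa1a shares near-identical sequence with Hspa1b, so its level is uncertain. Its cofactor Dnajb1 differed by 1.83, also with its highest mean between the limits (7.19 against 7.04 in Fos-high cells). Hspb1, a small heat shock protein, was above 0 in 11 of 29 Fos-high cells and in no Fos-low cell. Among 24 genes of the unfolded protein and integrated stress responses the median was 0.35, and Pdia4, a disulfide isomerase of the endoplasmic reticulum, was the one gene past 2 (3.05, but 1.09 in cells with at least 7500 genes). Of 16 corticosteroid-induced genes 2 passed 2 (all genes 4.32%), Dusp1 and the cell cycle inhibitor Cdkn1a (2.36, and 0.95 without the cells with astrocyte markers). The median of that list, which shares Dusp1, Per1 and Sgk1 with the early genes, was 1.25, and 0.31 without those cells.

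Outside the lists, 8 genes were among the 15 highest differences, the other 7 being early genes. Zdhhc9, a palmitoyltransferase, was at 0 in all 15 Fos-low cells and above 0 in 22 of 29 Fos-high cells (75.9%), a difference of 3.77, and was found in 55.2% of Fos-high cells at 50000 reads. Gem, a small GTPase that inhibits voltage-gated calcium channels, differed by 3.67 (5.75 against 2.08, above 0 in 24 of 29 and 6 of 15 cells). The ubiquitin ligase Traf7 differed by 3.66, the nuclear envelope protein Tmem43 by 3.63 and the LIM-domain protein Csrp1 by 3.62. Tmed5, a receptor for secretory cargo, differed by 3.59 and was above 0 in 28 of 29 and 6 of 15 cells. Cotl1, an actin-binding protein, differed by 3.53, and Mmd2 by 3.50 with all 15 Fos-low cells at 0. Without the cells with astrocyte markers these differences were between 2.95 and 3.84, except for Csrp1 (2.27) and Mmd2 (0.93). Exons of Traf7 and Tmed5 overlap those of neighbouring genes.

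Genes at 0 in every Fos-low cell but above 0 in at least 15 Fos-high cells were few: 10 of 10725 (0.0932%). They were Atf3, Npas4 and Klf10 of the early genes, with Zdhhc9, Mmd2, Gpr3 (a receptor that raises cyclic AMP), Notch2, Ddah2, Gpd1 and Aebp1, named after their values were seen. Without the cells with astrocyte markers Gpr3 had a difference of 2.63, Ddah2 of 1.42, and Notch2, Gpd1 and Aebp1 of 0.56, 0.51 and 0.24.

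Few genes were lower in Fos-high cells. The 3 past 2 were Ccdc91, which takes part in transport from the Golgi, the zinc finger gene Zfp715 and the unnamed model 4930586N03Rik. Ccdc91 was above 0 in all 15 Fos-low cells (mean 6.79 ± 1.42) and in 21 of 29 Fos-high cells (4.55 ± 3.04), a difference of -2.24 that was -3.24 among chow and -0.92 among low-sodium cells. Zfp715 differed by -2.16 (-1.81 and -2.57 in the diets). The next were Klhl36 (-1.99), St6galnac4 (-1.94), Xylt2 (-1.93), Borcs8 (-1.91) and Tm4sf4 (-1.90). Borcs8, a subunit of the complex that positions lysosomes, was like Ccdc91 present in all Fos-low cells and in 23 of 29 Fos-high cells. The lowest rho with Fos over 65 cells were -0.43 for Chn1, a Rac regulator, -0.40 for Tln2, a talin, -0.39 for Rit2, a neuronal GTPase, and -0.38 for Med27 and P4htm. Chn1, Tln2 and Rit2 were detected in all 44 cells and differed by only -0.54 to -0.64.

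Genes that mark HSD2 neurons were close in level between the groups. None of 12 compared differed by 2, and their median was 0.20, or -0.11 among chow cells. The differences were -0.08 for Hsd11b2, 0.57 for the mineralocorticoid receptor Nr3c2, -0.48 for the angiotensin receptor Agtr1a and 0.04 for the vesicular glutamate transporter Slc17a6, each within the SD over Fos-high cells. Cartpt, a neuropeptide precursor, was detected in all 29 Fos-high cells but in 12 of 15 Fos-low cells, with means of 7.34 ± 1.69 and 6.98 ± 3.92 (SD). The glucocorticoid receptor Nr3c1 had the largest difference of the panel, 1.39.

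**Figure D5:**
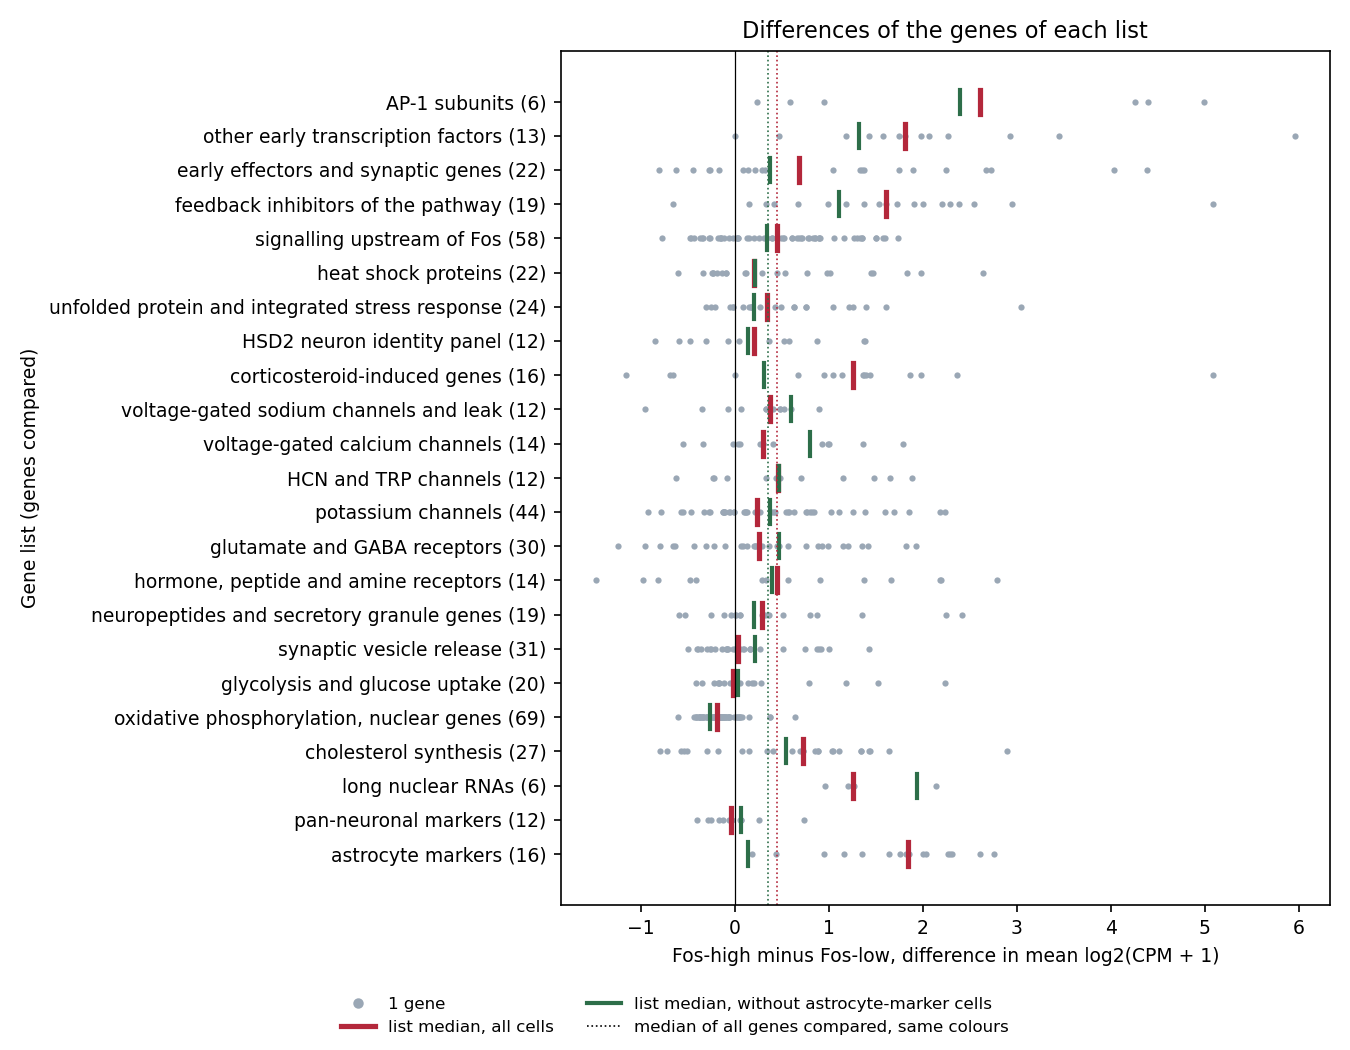
Fos-high minus Fos-low difference in mean log2(CPM + 1) (x axis) of each gene compared on 23 lists (y axis, number of genes in brackets), with the list median over all cells (red) and without astrocyte-marker cells (green) and the medians of all genes as dotted lines. Over all cells AP-1 subunits lie at 2.61, astrocyte markers at 1.84, other early factors at 1.81 and feedback inhibitors at 1.60, the astrocyte markers move to 0.14 without those cells, and the channel, receptor and synaptic lists lie within 0.45 of the median of all genes.

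Ion channel, receptor and synaptic lists had medians near or below that of all genes. These were 0.37 for sodium channels, 0.30 for calcium channels, 0.46 for HCN and TRP channels, 0.23 for potassium channels, 0.26 for glutamate and GABA receptors, 0.45 for hormone, peptide and amine receptors, 0.29 for neuropeptides and 0.03 for synaptic vesicle genes. No direction is read from them, since each of these medians had the other sign under 1 to 12 of 19 alternative settings, among cells with at least 7500 genes -0.66 for sodium and -0.86 for calcium channels. Past 2 were 2 of 44 potassium channel genes, 3 of 14 hormone, peptide and amine receptor genes and 2 of 19 neuropeptide genes (all genes 4.32%). The other lists had no gene past 2. The 7 genes included Kcna3, a shaker channel (2.18), and Ramp1, a subunit of the CGRP receptor (2.79, and 0.71 without the cells with astrocyte markers). The growth factor receptors Igf1r (2.20) and Insr (2.18), Adcyap1, which encodes PACAP (2.42), and Vgf were also among the 7. Among the cells with at least 7500 genes Kcna3 was at 1.52, Igf1r at 0.69 and Insr at -0.54. Nalcn, the sodium leak channel, was lower in Fos-high cells by 0.96 (6.49 against 7.45) and was above 0 in 28 of 29 and 15 of 15 cells.

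Genes of oxidative phosphorylation lay on the other side of the shift. Of 69 compared, 58 had a lower mean in Fos-high cells and 11 a higher one, and the median was -0.19, where all genes had 0.45 and genes with a mean of at least 7 had 0.01. The median was -0.41 after thinning and 0.16 in cells with at least 7500 genes, so its sign differed between these sets of cells. Ndufb4 differed by -0.60, Cox5b by -0.43 and Cox7b by -0.41, each detected in all 44 cells. Pan-neuronal markers had a median of -0.05 (0.06 without the cells with astrocyte markers), with Snap25 at -0.40 (9.87 against 10.27). The 6 long nuclear RNAs measured were all higher, among them Malat1 (1.27), Meg3 (1.26) and Snhg11 (1.26), with a median of 1.26 that was -0.48 in cells with at least 7500 genes. Cholesterol synthesis genes had a median of 0.72.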

How the data were processed

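The deposited table holds 65 columns of log2(CPM + 1) values made by the authors, 1 per hand-picked cell. The submitters' processing notes list featureCounts 1.4.6, SAMtools 0.1.19, HISAT2 2.0.5, Picard 2.5.0 and bcl2fastq, and the mm10 build. Settings, annotation, strand and scaling total: not given in the sources used here. Of 12015 lines, 121 sharing 60 names and 19 with serial numbers as names were left out, and 11875 genes remained, of which 10725 had a mean of at least 1.

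The values of each cell were whole multiples of 1 step (100% of values up to 20 steps, within 0.1 of a step), which gave reads per cell. CPM summed to over 1200000 in 9 low-sodium cells. Differences are Fos-high minus Fos-low means on the log2(CPM + 1) scale with a pseudocount of 1 CPM, which understates the change of low genes and is not a ratio of levels. Libraries held 50566 to 5319278 reads among the 44 cells. Since animals are not named, each diet counts as 1 sample: no test was run, and cell groups were described by means, SDs and counts. Doublets were not called. Thinning drew 50000 reads per cell without replacement. The steps were tested on simulated data.

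The cells, gene lists and rules were chosen with earlier results of these data known. Named genes were Fos, Fosb, Jun and Ier2, early genes with a mean of at least 1, the 15 highest and 15 lowest differences, up to 4 genes of each other list, and the 10 highest and 5 lowest rho with Fos. Other genes named were chosen after their values were seen. A few genes picked this way are left unreported. Overlaps of at least 50 exon bases were taken from GENCODE M21 and promoters from RefSeq. Alternatives changed the pseudocount, scaling, depth, summary, filter, limits on Fos and cells used. Python 3.11.15, pandas 2.3.3, numpy 2.4.6, scipy 1.17.1 and matplotlib 3.10.9 were used.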

Additional observations from a re-analysis of the deposited data

Results flagged for a closer look

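In the Fos-low cells each measure was read for a single cell far from the others of its diet. Chance meets this rule in about 1 of 20 groups. The Fos-high cells were not read in this way. Neuron 12 of the 9 chow Fos-low cells had 3245031 reads, where the next had 1680904, a gap of 0.497 of the range against a limit of 0.493. Neuron 47 of the 6 low-sodium Fos-low cells had a CPM sum of 1631553, where the next had 894369, a gap of 0.841 of the range against a limit of 0.625.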

How the results depend on the processing

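Counts are given as higher and lower by at least 2, then higher and lower by at least 1 in each diet, where all cells gave 463, 3, 1351 and 48. With a pseudocount of 10 CPM they were 8, 0, 151 and 4, with an early median of 0.71 and 7 early genes past 2. With 0.1 CPM they were 1862, 40, 2381 and 109, with an early median of 2.39 and 33 early genes. Centring on the median of all genes gave 146, 22, 568 and 209, with 13 early genes, and a mean of at least 3 gave 226 and 701 higher with 10 early genes. Medians over cells gave 1754 and 115, with 102 lower in each diet, and ratios of mean CPM gave 41 lower by 2, with 900 and 77 in each diet. Chow cells alone gave 855 and 39 and low-sodium cells alone 1154 and 120. Splitting all cells at a Fos value of 6 gave 102 and 719 higher with 11 early genes.

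The count lower by at least 2 also moved, with the count lower by 1 in each diet beside it: 32 and 174 after thinning, 24 and 140 without the cells with fewest detected genes, 19 and 118 with Fos limits of 9 and 3, 31 and 155 without the cells with astrocyte markers, and 145 and 457 in cells with at least 7500 genes. It was 6 without the 20 highest genes, as the mean of the diets and without high CPM sums, and 9 with Fos at 0 alone. Slc1a3 was at -0.23 without the cells with astrocyte markers and Insr at -0.54 in cells with at least 7500 genes. The cause was not tested. The early median was above 0 in each of these settings. The settings on astrocyte markers, 7500 genes, Fos at 0, centring and neuron 47 were chosen after seeing the data.

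Leaving out 1 cell at a time gave 404 to 583 genes higher and 3 to 9 lower by 2 (9 without chow neuron 68), 1173 to 1560 higher and 38 to 76 lower by 1 in each diet (76 without low-sodium neuron 35), an early median of 1.36 to 1.62 and 18 to 22 early genes past 2. At least 3 markers of any non-neuronal list, the full list of 16 astrocyte markers included, were above 10 CPM in 28 of 29 Fos-high and 14 of 15 Fos-low cells. Leaving these out left 1 cell a group and gave no value. No paired analysis was possible because the numbers in the labels count neurons and no test was run.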
